A study of Homo sapiens with 12 samples.

Results

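The ATF4 amino acid stress response was described in U937 cells by 10 genes that were named as a set, out of 44786 gene symbols in the table of read counts. The set holds 4 transcription factors (ATF4, ATF3, ATF5 and DDIT3), 3 enzymes of amino acid synthesis (ASNS, PSAT1 and PHGDH) and 3 stress effectors or regulators (CHAC1, SESN2 and TRIB3). Membership was by gene symbol, with no threshold on a measured value, and every transcript that the table lists under these symbols was examined.

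U937 is a human acute myeloid leukemia (AML) cell line. Decitabine (DAC), a modified cytidine, becomes part of new DNA and there binds up the enzymes that methylate it. All-trans retinoic acid (ATRA) activates the nuclear retinoic acid receptors. Total RNA was depleted of ribosomal RNA and sequenced in 12 strand-specific libraries, 3 each from untreated cells, cells given 200 nM DAC, cells given 1 microM ATRA, and cells given both (DAC+ATRA). The question was how each agent and their combination changed the transcriptome. The labels give 3 days of treatment with a daily change of medium and fresh DAC, a harvest at 72 h for treated and 96 h for untreated cells, and a medium with 20% FCS and 5 ng/ml GM-CSF for all groups. The study's methods give 72 h for all groups, add ATRA only with the last dose of DAC, and describe a medium with less FCS and no GM-CSF, so the medium, the harvest time of untreated cells and the length of ATRA exposure are not settled here. They also dissolve ATRA in DMSO and describe controls given vehicle, while the labels call the control cells untreated. Whether these cells received DMSO is not settled, and if not, DMSO and ATRA cannot be told apart. All groups were the same cell line, and the series text calls the 3 libraries of a group technical triplicates, so the p-values measure only the spread between such libraries. The column headers name the group of each library but not its replicate, and libraries are called here by their running number in the table (DAC library 4).

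ATF4 is a transcription factor of the integrated stress response. Kinases that sense amino acid shortage, misfolded protein in the endoplasmic reticulum (ER), double-stranded RNA or heme shortage phosphorylate the initiation factor eIF2, which lowers general translation and favors translation of the ATF4 mRNA through short reading frames in its leader. ATF4 then binds, often with a C/EBP partner, to composite elements near genes for amino acid synthesis, amino acid transport and tRNA charging, as well as to regulators such as DDIT3 and TRIB3. An mRNA level therefore does not measure ATF4 activity.

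Between 8042435 and 10683593 reads were counted per library, and the 10 genes held 74551 reads over the 12 libraries. Mitochondrial transcripts took 40.6% to 42.5% of the reads in untreated, 37.0% to 40.4% in DAC, 38.9% to 41.1% in ATRA and 36.3% to 38.3% in DAC+ATRA libraries, so that the DAC and DAC+ATRA libraries were below the untreated ones. The unit below is the normalized read count, which is the number of reads divided by 1 size factor for the library, and 3 reads equal 2.50 to 3.71 normalized reads. A transcript was called higher or lower at an adjusted p under 0.01, from limma on log2(normalized read count + 1) with Benjamini-Hochberg adjustment over all transcripts tested. Fold changes on this scale understate the change of low transcripts. Of the 10 listed U937 markers, 9 had at least 10 reads, MPO among them, while AZU1 had 4 reads. Summed values of markers differed between groups, those of U937 itself included. The U937 markers, mostly MPO, summed to 55228 to 61586 in untreated, 26677 to 40564 in DAC, 33628 to 45327 in ATRA and 23841 to 25330 in DAC+ATRA libraries. The sum hides members that went the other way: with DAC, MPO was at 20236 to 32650 against 49477 to 55620 in untreated libraries, while LYZ was at 641 to 941 against 155 to 181 and ITGAM at 858 to 893 against 194 to 218. The 4 T cell markers, nearly all CD2 with CD3E at 1 read in all, summed to 2.76 to 10.2, 296 to 391, 4.55 to 7.39 and 129 to 178 in the same order. The 3 B cell markers, nearly all CD79A with MS4A1 at 9 reads, summed to 133 to 143, 519 to 533, 229 to 374 and 1315 to 1394. The 4 epithelial markers, mostly KRT8 and EPCAM with CDH1 at 0 reads, summed to 0 to 0.91, 8.65 to 25.9, 0 and 12.4 to 23.2, and the 3 erythroid markers had 0 reads. The part of these markers and of the mitochondrial share in the results below was not tested. In bulk RNA, fewer cells of a kind and less RNA per cell cannot be told apart.

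The values of these genes rest on short stretches of sequence. The table counts reads per transcript, and a read that lies in exons of several listed transcripts is left uncounted when htseq-count finds it ambiguous. Of the 62 transcripts listed for the 10 genes, 28 had reads and 34 had none. The 7 transcripts of DDIT3, which encodes the pro-apoptotic factor CHOP, had 0 reads in all 12 libraries. Of the 6 that could be matched to the GENCODE 44 annotation, 3 had no base of their own and the others had 3, 110 and 129 bases. At 0 reads, up to 3 reads per library remain possible on those bases, and the level of DDIT3 could not be determined.

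ATF4-201 was counted from the 506 bases of its leader (from position 39520752 of chromosome 22) that its other transcripts splice out. ATF5-201 was counted from its 3′ UTR (637 of 649 bases of its own) and PSAT1-202 likewise from 639 of 795 bases. SESN2-201, the single transcript of its gene, could be counted along all of its 3462 bases. For ATF3, ASNS and PHGDH, the transcripts with most reads were not annotated as coding: the retained-intron transcripts ATF3-208 with 902 bases of its own and ASNS-215 with 362, and PHGDH-203 with 125 bases and no defined coding sequence. These 3 genes were tested in a fit of all 19373 transcripts with enough reads, a choice made after the data were seen, and the other 6 in the fit of 9016 protein-coding transcripts.

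**Figure D1:**
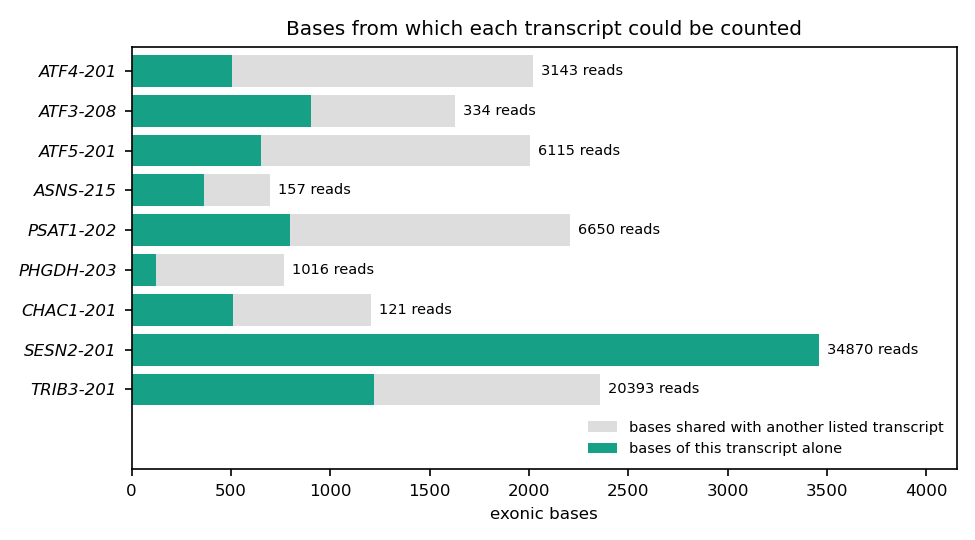
Exonic bases of the transcript with most reads for each of the 9 genes with reads, by GENCODE 44 on GRCh38 (x axis, bases). Green bars are bases that belong to that transcript alone, grey bars are bases shared with another listed transcript on the same strand, and the text gives the reads over all 12 libraries. SESN2-201 has no shared base, while PHGDH-203 rests on 125 bases.

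The stretch that stands for PHGDH is printed because all 1016 reads of PHGDH-203 rest on it. It is an exon at chr1:119729509-119729633 on the plus strand (GRCh38, GENCODE 44) that lies within an intron of the coding transcripts.
PHGDH-203: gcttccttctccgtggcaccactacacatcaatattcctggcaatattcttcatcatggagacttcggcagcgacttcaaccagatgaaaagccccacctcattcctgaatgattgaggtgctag

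The composite element that C/EBP-ATF pairs bind was searched as TGATGNAA on both strands in the RefSeq promoter windows (GRCh38.p14), which run from 250 bases before to 50 bases after a start site. All 10 genes matched, with 18 windows. The element was found in 3 of these windows, 1 each of ATF3, ASNS and CHAC1, and in 3.62% of the 35116 windows of all genes. The cyclic AMP response element, searched as TGACGTCA, was in 0 of the 18 windows and in 1.85% of all windows, and the 2 motifs do not overlap. The element lies at chr1:212565216-212565223 for ATF3, chr7:97872469-97872476 for ASNS and chr15:40953262-40953269 for CHAC1. Its first base is 191, 68 and 209 bases before the start site, respectively. The lines below give 30 bases of each, 5′ to 3′ on the strand of the gene, with the element in capitals. It lies on the strand of the gene in ATF3 and ASNS and on the other strand in CHAC1. These 3 are shown because they are the members whose windows hold the element.
ATF3: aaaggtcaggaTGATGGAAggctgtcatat
ASNS: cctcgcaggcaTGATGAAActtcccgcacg
CHAC1: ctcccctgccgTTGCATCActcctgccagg
A match is a description of these letters and not a sign of binding. The members that hold it did not move in 1 direction: with DAC, ATF3 was higher and ASNS lower, and CHAC1 did not pass the threshold, as described next. The counted transcripts of ATF3 and ASNS do not start in these windows. ATF3-208 starts at chr1:212608670, while the window spans chr1:212565157-212565456. ASNS-215 spans chr7:97854991-97858379, while the window spans chr7:97872359-97872658. Their values therefore do not measure transcripts that start at the element.

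The transcription factors with reads were higher with DAC. ATF4-201 stood at 205, 154 and 169 normalized reads in the untreated libraries, at 290, 319 and 360 with DAC, at 240, 270 and 209 with ATRA, and at 267, 321 and 293 with DAC+ATRA. Each treated library was above each untreated library, and the DAC and DAC+ATRA libraries overlapped. Against untreated cells ATF4-201 rose by a log2 fold change of 0.88 with DAC (SE 0.14, adjusted p = 2.285e-05, limma) and 0.74 with DAC+ATRA (SE 0.14, adjusted p = 0.000123). With ATRA it was 0.45 (adjusted p = 0.0353), which did not pass the threshold. The gap between DAC+ATRA and DAC, -0.13 (SE 0.14), was within the spread of the libraries. The second ATF4 transcript with reads, ATF4-203, held 233 reads and did not pass the threshold in any comparison with untreated cells (0.56, 0.38 and 0.36 with DAC, ATRA and DAC+ATRA).

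ATF5 encodes a related bZIP factor whose mRNA also has a leader that favors translation under stress, and it showed the largest rise with DAC among the 9 members with reads. ATF5-201 had 233, 203 and 193 normalized reads in untreated cells and 996, 894 and 1049 with DAC. With ATRA it had 245, 277 and 142, and with DAC+ATRA 613, 657 and 653. The DAC libraries were the highest and the DAC+ATRA libraries came next, with no overlap between them or with the other groups. The untreated and ATRA libraries overlapped. The log2 fold change against untreated cells was 2.22 with DAC (SE 0.17, adjusted p = 3.03e-09), 0.03 with ATRA (adjusted p = 0.967) and 1.61 with DAC+ATRA (SE 0.17, adjusted p = 2.00e-07). DAC+ATRA lay 0.61 below DAC on the log2 scale (-0.61, SE 0.17, adjusted p = 0.0191), outside the threshold here. It was within the threshold under 7 other settings, edgeR and DESeq2 among them, and without ATRA library 8 or 9, at adjusted p-values of 0.000126 to 0.00705. The share of the reads of ATF5 on ATF5-201 was 86.2% ± 3.41 (SD, n = 3) in untreated and 92.2% ± 0.958 in DAC libraries. ATF5-205, counted from 201 bases at the end of a shorter coding transcript, also rose with DAC, from 21.7 to 67.1 normalized reads (log2 fold change 1.58, SE 0.29, adjusted p = 9.794e-05). It did not pass the threshold with DAC+ATRA (0.83, adjusted p = 0.0179, limma), nor did ATF5-202 with DAC (1.215, adjusted p = 0.0142). ATF5-203, with 43 reads in all, was not tested and went from a mean of 4.89 to 1.31 normalized reads with DAC.

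ATF3 is a stress-induced factor of the same family that mostly acts as a repressor. The retained-intron transcript ATF3-208 had 15.6, 20.9 and 18.5 normalized reads in untreated cells and 50.8, 52.6 and 58.8 with DAC. It had 14.8, 8.19 and 8.32 with ATRA and 28.9, 34.7 and 19.8 with DAC+ATRA. The DAC libraries were above all others, and the ATRA libraries were below the untreated ones. ATF3-208 rose by 1.52 on the log2 scale with DAC (SE 0.27, adjusted p = 5.499e-05, limma over all transcripts). It was -0.80 with ATRA (SE 0.27, adjusted p = 0.059) and 0.55 with DAC+ATRA (SE 0.27, adjusted p = 0.0922), neither of which passed. DAC+ATRA was higher than ATRA alone by 1.35 (adjusted p = 0.000247), and its value against DAC was -0.97 (adjusted p = 0.0152), which passed with edgeR (-0.93, adjusted p = 0.00476). These reads lie in retained-intron sequence. The 7 coding transcripts of ATF3, of which 6 have no base of their own, had no reads.

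**Figure D2:**
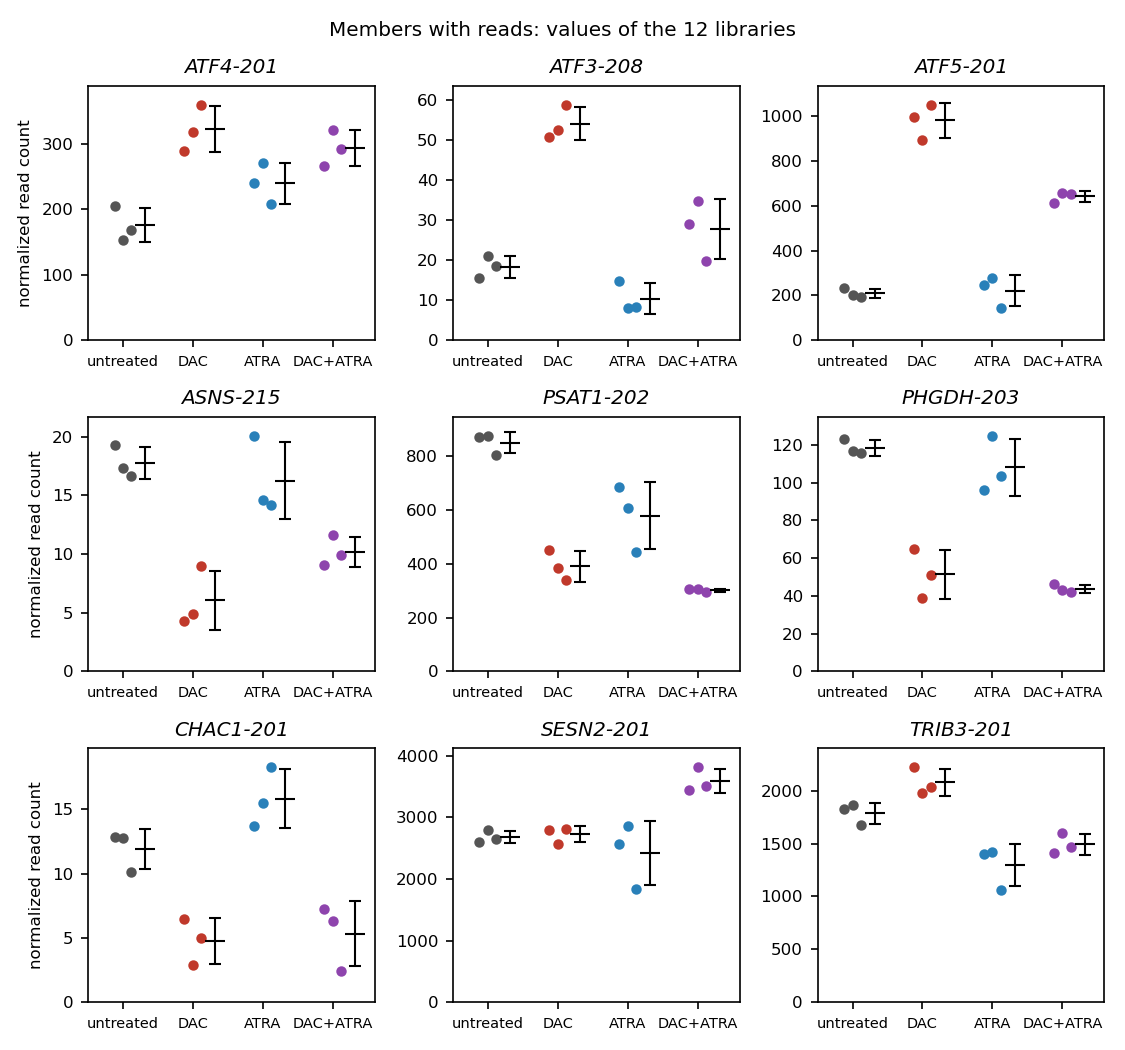
Normalized read count (y axis, from 0) of the transcript with most reads of 9 genes in 3 libraries each of untreated, DAC, ATRA and DAC+ATRA cells (x axis). Points are libraries in the order of the table, and the bar beside them gives the mean and SD. ATF5-201 runs from 894 to 1049 with DAC against 193 to 233 in untreated cells, while PSAT1-202 runs from 339 to 452 against 805 to 876.

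The enzymes of amino acid synthesis were lower with DAC. PSAT1, phosphoserine aminotransferase of serine synthesis, had 871, 876 and 805 normalized reads in untreated cells and 452, 383 and 339 with DAC. It had 686, 609 and 443 with ATRA and 306, 305 and 294 with DAC+ATRA. Every treated library was below every untreated library, and the DAC+ATRA libraries were below all DAC libraries. The log2 fold change was -1.13 with DAC (SE 0.14, adjusted p = 8.293e-07) and -1.49 with DAC+ATRA (SE 0.14, adjusted p = 1.127e-08). With ATRA it was -0.58 (SE 0.14, adjusted p = 0.00646). This ATRA call was lost without any 1 of untreated libraries 1, 2 and 3, ATRA library 9 or DAC+ATRA library 10 (adjusted p from 0.0113 to 0.0326), and when untreated and ATRA libraries were fitted alone. Against ATRA alone, DAC+ATRA was lower by 0.92 (-0.92, adjusted p = 1.422e-05).

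PHGDH, phosphoglycerate dehydrogenase, catalyzes the step that commits glycolytic carbon to serine. The block of PHGDH-203 printed above had 123, 117 and 115 normalized reads in untreated cells and 64.9, 39.0 and 50.8 with DAC. It had 96.1, 125 and 103 with ATRA and 46.1, 43.2 and 42.0 with DAC+ATRA. All DAC and DAC+ATRA libraries were below all untreated and ATRA libraries. PHGDH-203 had log2 fold changes of -1.21 with DAC (SE 0.18, adjusted p = 5.211e-06), -0.14 with ATRA (SE 0.18, adjusted p = 0.726) and -1.42 with DAC+ATRA (SE 0.18, adjusted p = 3.601e-07), by limma over all transcripts. The retained-intron transcripts PHGDH-204 and PHGDH-205, each counted from other bases of the gene, were lower too, with log2 fold changes of -1.13 and -1.51 with DAC (adjusted p = 0.000855 and 0.00107) and -1.61 each with DAC+ATRA. The coding transcripts of PHGDH had no reads in this table.

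ASNS encodes asparagine synthetase, a textbook target of ATF4 under amino acid shortage. Its retained-intron transcript ASNS-215 had 19.3, 17.3 and 16.6 normalized reads in untreated cells and 4.32, 4.87 and 8.96 with DAC. It had 20.1, 14.6 and 14.1 with ATRA and 9.04, 11.6 and 9.89 with DAC+ATRA. The DAC libraries were the lowest, below the DAC+ATRA libraries, which were below the untreated and ATRA libraries. For ASNS-215 the log2 fold change was -1.46 with DAC (SE 0.33, adjusted p = 0.000683) and -0.75 with DAC+ATRA (SE 0.33, adjusted p = 0.0567), and -0.13 with ATRA (adjusted p = 0.877). The 157 reads of this transcript limit its precision. When the 7 ASNS transcripts with reads were summed (308 reads), the log2 fold change was -1.98 with DAC (adjusted p = 2.252e-06) and -1.45 with DAC+ATRA (adjusted p = 9.279e-05), in a fit of all symbols of which 12.4% and 17.4% were lower.

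The stress effectors and regulators moved by less or rested on few reads. CHAC1, which encodes an enzyme that degrades glutathione, had 12.9, 12.7 and 10.2 normalized reads of CHAC1-201 in untreated cells and 6.49, 2.92 and 4.98 with DAC. It had 13.7, 15.5 and 18.3 with ATRA and 7.23, 6.32 and 2.47 with DAC+ATRA. The DAC and DAC+ATRA libraries were below the others. At 121 reads in all, the log2 fold changes of -1.20 with DAC (SE 0.38, adjusted p = 0.0122) and -1.12 with DAC+ATRA (SE 0.38, adjusted p = 0.0163) did not pass the threshold. With edgeR the value with DAC passed (-1.51, adjusted p = 0.00563), and under scaling by library size or by protein-coding transcripts both values did. Without single libraries they ran from -1.41 to -0.94 with DAC and from -1.35 to -0.73 with DAC+ATRA. DAC+ATRA was lower than ATRA alone by 1.50 (-1.50, adjusted p = 0.00282), a call lost without ATRA library 9 or DAC+ATRA library 12 (adjusted p = 0.0133 and 0.0262) and with DESeq2 (0.0209). These reads come from 509 bases at chr15:40952962-40953470, upstream of the RefSeq start site, a stretch that contains the element printed above.

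SESN2 encodes sestrin 2, a leucine sensor that restrains mTORC1 signaling. SESN2-201 had 2602, 2793 and 2645 normalized reads in untreated cells and 2791, 2576 and 2807 with DAC. It had 2566, 2857 and 1843 with ATRA and 3441, 3821 and 3515 with DAC+ATRA. The DAC+ATRA libraries were above all others, and the other groups overlapped. With DAC+ATRA the log2 fold change was 0.42 against untreated cells (SE 0.12, adjusted p = 0.00541), 0.59 against ATRA (adjusted p = 0.000398) and 0.40 against DAC (adjusted p = 0.0252), which with edgeR was 0.46 (adjusted p = 0.000353). The first call was lost without any 1 of the 6 untreated or DAC+ATRA libraries (adjusted p from 0.0115 to 0.0295) and under scaling by library size (0.27, adjusted p = 0.0172) or with size factors from protein-coding transcripts (0.29, adjusted p = 0.0118). With DAC alone the value was 0.02 and -0.18 with edgeR. The interaction, the excess of DAC+ATRA over the sum of the single-agent log2 fold changes, was 0.57 (SE 0.17, adjusted p = 0.0614), and 0.65 with edgeR (adjusted p = 0.00194).

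TRIB3 encodes a pseudokinase that binds AKT and feeds back on ATF4 and DDIT3. TRIB3-201 had 1822, 1859 and 1671 normalized reads in untreated cells and 2224, 1976 and 2033 with DAC. It had 1406, 1421 and 1064 with ATRA and 1412, 1597 and 1464 with DAC+ATRA. The DAC libraries were above and both groups with ATRA below the untreated libraries, while those with ATRA overlapped each other. The log2 fold change was -0.47 with ATRA (SE 0.11, adjusted p = 0.00506), 0.22 with DAC (SE 0.11, adjusted p = 0.104) and -0.26 with DAC+ATRA (SE 0.11, adjusted p = 0.0509). The last of these passed with edgeR (-0.40, adjusted p = 0.000117) and 3 other settings. DAC+ATRA was 0.48 below DAC on the log2 scale (-0.48, SE 0.11, adjusted p = 0.00362). The ATRA call was lost without untreated library 1 or 2 or ATRA library 9 (adjusted p from 0.0108 to 0.0328), and when untreated and ATRA libraries were fitted alone. The call against DAC was lost without DAC library 4 or 6 or DAC+ATRA library 10 or 12 (0.0105 to 0.027).

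**Figure D3:**
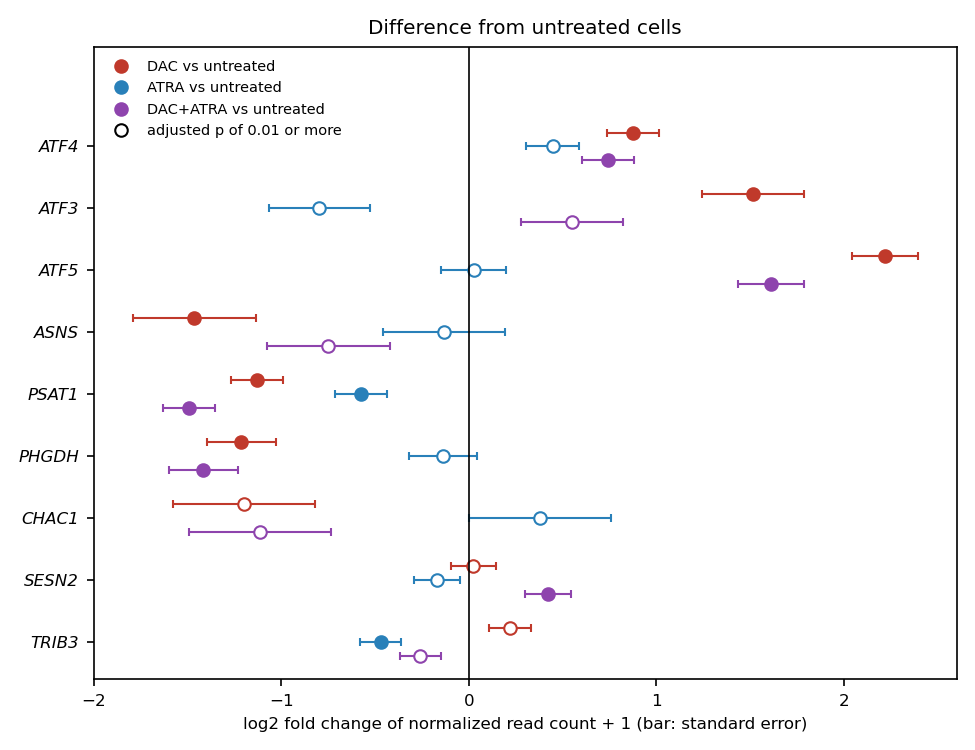
Log2 fold change of each treatment against untreated cells (x axis) for 9 genes (y axis), with bars for the SE. Filled points passed the threshold of 0.01 and open points did not. ATF4, ATF3 and ATF5 lie to the right of 0 with DAC, at 0.88, 1.52 and 2.22, and ASNS, PSAT1 and PHGDH to the left, at -1.46, -1.13 and -1.21.

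Counted over the 6 genes in the fit of protein-coding transcripts, 2 were higher with DAC (ATF4 and ATF5) and 1 was lower (PSAT1). In that comparison, 30.6% of all transcripts tested were higher and 8.70% lower. With ATRA, 0 of the 6 were higher and 2 were lower (PSAT1 and TRIB3), against 6.47% and 2.67% of all transcripts. The count of 0 stayed 0 with edgeR and DESeq2, and 1 gene (ATF4) was higher at an unadjusted p under 0.05 by limma. With DAC+ATRA, 3 were higher (ATF4, ATF5 and SESN2) and 1 lower (PSAT1), against 32.6% and 14.2%. In the fit of all transcripts, which holds 9 of the genes, DAC gave 3 higher (with ATF3) and 3 lower (with ASNS and PHGDH), against 22.2% and 11.3% of all transcripts. DAC+ATRA gave 3 higher and 2 lower there, against 25.5% and 16.1%, and ATRA gave 0 and 2 (PSAT1 and TRIB3), against 5.11% and 1.87%. Calls were common in the comparisons with DAC, and the members' counts were not tested against that background. The median log2 fold change over all protein-coding transcripts tested was 0.22 with DAC and 0.20 with DAC+ATRA, and 0.02 and 0.06 when edgeR's TMM scaling was used. Relative to this median, ATF5-201 was at 2.00, ATF4-201 at 0.65 and TRIB3-201 at -0.0017 with DAC, while PSAT1-202 was at -1.35. The signs for ATF4, ATF3, ATF5, ASNS, PSAT1 and PHGDH with DAC and with DAC+ATRA were the same under every setting that was run.

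Between the treatments, DAC+ATRA against ATRA had 2 of the 6 genes higher (ATF5 and SESN2) and 2 lower (PSAT1 and CHAC1), where 25.9% and 8.88% of all transcripts were called. In the fit of all transcripts it had 3 of the 9 genes higher (with ATF3) and 3 lower (with PHGDH), against 19.1% and 10.2%. DAC+ATRA against DAC had 0 higher and 1 lower (TRIB3), against 6.08% and 5.26%. That 0 by limma became 1 with edgeR (SESN2) and stayed 0 with DESeq2, and 1 gene (SESN2) was higher at an unadjusted p under 0.05. In the interaction, 0 of the 6 were higher and 0 lower, against 0.787% and 1.67% of all transcripts. At an unadjusted p under 0.05 limma gave 1 higher and 2 lower, edgeR called 1 higher (SESN2) and 0 lower, and DESeq2 called 0 and 0. These comparisons share libraries, so their values are given side by side and not as separate evidence. ATRA library 9 was the lowest of its group for 6 of the 9 genes, as untreated library 3 was of its own, and its median deviation from the other 2 ATRA libraries was -0.18 on the log2 scale, against -0.08 to 0.13 for the other 11 libraries. Without it, the ATF5 interaction was -0.92 (adjusted p = 0.000483), against -0.63 (adjusted p = 0.177) with it, and no member was called lower with ATRA.

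The wider pathway was covered by 6 lists of ATF4 partners, targets and neighboring routes, of which 99 genes were in the table and 61 were tested. With DAC 13 of the 61 were higher and 10 lower, with ATRA 5 and 2, and with DAC+ATRA 15 and 19. These counts were 21.3% and 16.4%, 8.20% and 3.28%, and 24.6% and 31.1% of the genes tested, to be read against the shares of all transcripts given above. With edgeR and TMM scaling the counts were 8 and 23 with DAC, 5 and 5 with ATRA, and 13 and 25 with DAC+ATRA, while over all 9016 transcripts DAC gave 2294 higher and 1604 lower, in place of 2763 and 784 (25.4% and 17.8%, in place of 30.6% and 8.70%). Over the same transcripts edgeR gave 6.64% higher and 4.31% lower with ATRA, and 29.2% and 20.3% with DAC+ATRA. The median log2 fold change over the 61 genes was -0.0031 after DAC and -0.13 each after ATRA and DAC+ATRA, beside 0.22, 0.00 and 0.20 over all transcripts tested.

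By limma, most genes for tRNA charging and amino acid supply did not pass the threshold with DAC, and those that did fell, apart from 1 transporter. Of the 9 cytosolic aminoacyl-tRNA synthetase genes tested, the numbers that fell were 3, 1 and 5 for DAC, ATRA and DAC+ATRA, and 0 rose in these comparisons by limma, edgeR or DESeq2, with 0, 1 and 1 higher at an unadjusted p under 0.05 by limma. The falls were 33.3%, 11.1% and 55.6% of these 9 genes, beside 8.70%, 2.67% and 14.2% of all transcripts lower. With edgeR 5 fell with DAC, beside 17.8%. AARS, the alanyl-tRNA synthetase, went from 3764 to 4069 normalized reads in untreated libraries to 1674 to 2413 with DAC and 1584 to 1733 with DAC+ATRA (log2 fold change -0.99 and -1.24, adjusted p = 3.284e-07 and 8.718e-09). LARS, the leucyl-tRNA synthetase, fell with both (-0.69 and -0.90), and DARS, the aspartyl-tRNA synthetase, with DAC+ATRA (-1.01). EPRS, which charges glutamate and proline tRNAs, was 2853 to 2873 in untreated and 1965 to 2109 in ATRA libraries (-0.49, adjusted p = 0.00041), and fell with DAC too (-0.65). Of the 4 genes of amino acid synthesis and one-carbon metabolism tested, MTHFD2, the mitochondrial folate enzyme, fell with DAC (-0.49, SE 0.12) and with DAC+ATRA (-0.52), and PCK2 fell with DAC+ATRA (-1.78, SE 0.33), so 1 and 2 of the 4 were lower, beside 8.70% and 14.2% of all transcripts. With edgeR 3 of the 4 were lower in each, beside 17.8% and 20.3%. Of the 9 amino acid transporters tested, SLC36A4 fell (-0.97) with DAC (1 of 9 lower and 1 higher, 11.1% each, beside 8.70% and 30.6% of all transcripts), and SLC38A1 was higher (0.37), a call lost with edgeR (0.17, adjusted p = 0.0427) and with size factors from protein-coding transcripts. With edgeR 3 of the 9 were lower and 0 higher with DAC (beside 17.8% and 25.4%), and 6 lower and 1 higher with DAC+ATRA (beside 20.3% and 29.2%). By limma 4 fell and 2 rose with DAC+ATRA (44.4% and 22.2%, beside 14.2% and 32.6% of all transcripts), with SLC38A2 (-1.06), SLC36A4 (-0.83) and SLC7A5 (-0.84), the light chain of a leucine transporter, among those that fell, and SLC38A1 (0.32) again a call lost with edgeR (0.18, adjusted p = 0.0335). SLC6A9, a glycine transporter, rose with ATRA from 14.8 to 17.3 normalized reads to 59.9 to 92.9 (2.21, adjusted p = 5.104e-07), and with DAC+ATRA by 1.84.

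Other partners and targets of ATF4 held the largest rises among the lists with DAC and with DAC+ATRA, while with ATRA SLC6A9 rose more (2.21). Of the 13 tested, 6 rose and 2 fell with DAC, 3 and 1 with ATRA, and 7 and 3 with DAC+ATRA. Higher were 46.2%, 23.1% and 53.8% of this list, beside 30.6%, 6.47% and 32.6% of all transcripts, and lower were 15.4%, 7.69% and 23.1%, beside 8.70%, 2.67% and 14.2%. With edgeR 5 were higher and 4 lower with DAC, beside 25.4% and 17.8%. STC2, a secreted glycoprotein induced by ER stress, had 14.6 to 26.8 normalized reads in untreated cells, 411 to 517 with DAC, 19.1 to 33.8 with ATRA and 302 to 387 with DAC+ATRA, for log2 fold changes of 4.50 with DAC (SE 0.21) and 4.11 with DAC+ATRA. GDF15, a stress cytokine, had 2.77 to 6.37, 31.3 to 77.0, 13.7 to 19.1 and 363 to 496 normalized reads in the same order. Its log2 fold changes were 3.24, 1.64 and 6.22 for DAC, ATRA and DAC+ATRA (SE 0.30 each). TNFRSF10B, the death receptor DR5 and a target of CHOP, had at most 1 read per untreated library, and was at least 4.94-fold higher with DAC and at least 7.36-fold higher with DAC+ATRA when set against 3 reads per library. PPP1R15A, the eIF2 phosphatase subunit GADD34, named after its values were seen, rose with DAC (1.24, SE 0.16) and DAC+ATRA (1.13). CEBPB, a dimer partner of ATF4, and DDIT4, an inhibitor of mTORC1, rose with ATRA by 1.88 and 1.80. CEBPB was also called higher with DAC (992 to 1469 normalized reads against 655 to 721 in untreated libraries) and with DAC+ATRA (2448 to 2645). DDIT4 stood at 1842 to 2154 normalized reads with DAC against 2007 to 2028 in untreated libraries, and was called higher with DAC+ATRA (4631 to 5090). JDP2, a bZIP repressor, and XPOT, the tRNA exporter, fell with DAC (-1.36 and -0.64) and with DAC+ATRA (-2.10 and -0.88), and XPOT with ATRA (-0.47). EIF4EBP1, which encodes the translation inhibitor 4E-BP1, fell with DAC+ATRA (-1.13).

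Of 13 genes for eIF2, its kinases and its exchange factor, 1 rose and 3 fell with DAC, 0 passed with ATRA by limma (0 higher and 4 lower at an unadjusted p under 0.05, 2 lower by edgeR and 0 by DESeq2) and 1 rose and 5 fell with DAC+ATRA. With DAC these were 7.69% higher and 23.1% lower, beside 30.6% and 8.70% of all transcripts, and with DAC+ATRA 7.69% and 38.5%, beside 32.6% and 14.2%. With edgeR, 0 were higher and 7 lower with DAC, where 25.4% and 17.8% of all transcripts were called. The gene that rose was EIF2AK2, the kinase activated by double-stranded RNA (0.46 with DAC and 0.59 with DAC+ATRA, SE 0.11 each). With edgeR its value with DAC was 0.26 (adjusted p = 0.0234), no longer within the threshold. EIF2S3, the gamma subunit of eIF2, fell by 0.46 and 0.78 on the log2 scale in these comparisons. EIF2B5, the catalytic subunit of the exchange factor, fell by 1.21 and 1.05 on that scale, calls lost with DESeq2 (adjusted p = 0.0133 and 0.0252). EIF2S2, the beta subunit of eIF2, fell with DAC (-0.43). It was also called lower with DAC+ATRA, at 6364 to 7047 normalized reads against 9150 to 9607 in untreated libraries. IMPACT, an inhibitor of the kinase GCN2, fell with DAC+ATRA (-0.73). Of 13 genes for the ATF6 and XBP1 arms of the ER response, 5 rose and 0 fell with DAC, 1 and 0 with ATRA, and 5 and 0 with DAC+ATRA. The shares higher, 38.5%, 7.69% and 38.5%, were near those of all transcripts (30.6%, 6.47% and 32.6%), so these counts do not set the list apart. For the counts of 0 by limma, edgeR gave 1, 0 and 1 lower, DESeq2 gave 0 in each, and 1, 1 and 2 were lower at an unadjusted p under 0.05. ERN1, the ER sensor IRE1, went from 349 to 362 normalized reads in untreated cells to 558 to 686 with DAC and 700 to 759 with DAC+ATRA (0.78 and 1.04, SE 0.11 each). EDEM1, which helps to clear misfolded glycoproteins, rose in all comparisons with untreated cells (0.69, 0.41 and 0.74). HSP90B1, an ER chaperone, was at 0.75 with DAC (adjusted p = 0.00825) and XBP1, the factor spliced by IRE1, at 0.76 with DAC+ATRA (adjusted p = 0.00929). Both calls were lost with edgeR (adjusted p = 0.0451 and 0.0278), DESeq2 and both other scalings. With edgeR, 3 of the 13 rose with DAC. HSPA5, the chaperone BiP, named after its values were seen, was at 0.33 with DAC (adjusted p = 0.0184).

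**Figure D4:**
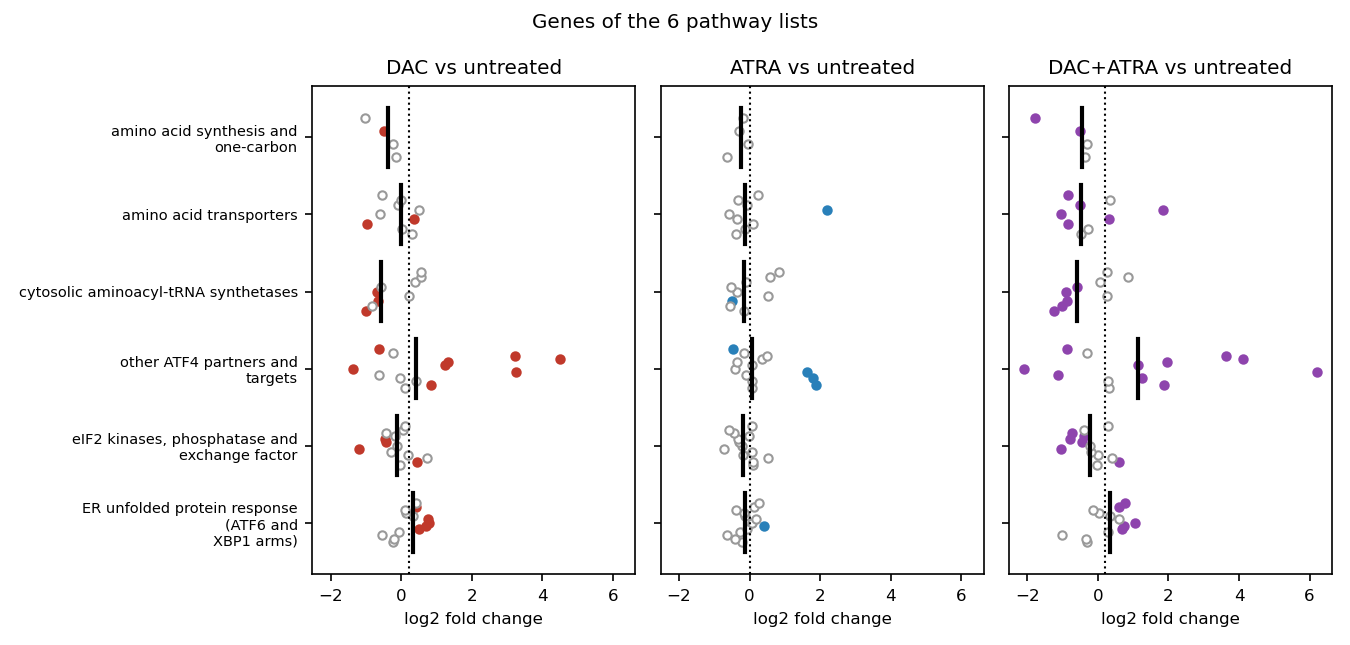
Log2 fold change against untreated cells (x axis, 1 panel per treatment) of the 61 genes tested in 6 pathway lists (y axis). Colored points passed the threshold of 0.01 and open grey points did not, the short black line is the median of a list and the dotted line the median of all protein-coding transcripts tested. The aminoacyl-tRNA synthetase list has its median at -0.56 with DAC and the list of other ATF4 partners and targets at 0.42, beside 0.22 for all transcripts.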

How the data were processed

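RNA-seq values of 12 U937 libraries were analysed. Per the labels, submitters' notes and the study's methods, the authors used FastQC for read quality, STAR for alignment to hg38, htseq-count for counting and DESeq2 for normalization. Versions, annotation release and counting mode are not given in the sources used here. The deposited signal values are read counts per transcript divided by 1 size factor per library. Within each library 100% of values were whole multiples of 1 step (within 0.01 of a read), from which reads were recovered. Of 197782 transcripts, 174768 were matched by identifier to GENCODE 44, whose transcript versions can differ from the authors'.

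Protein-coding transcripts entered the test if 3 or more libraries had a value of at least 10. The test was limma 3.58.1 (lmFit, then eBayes with its trend and robust options, R 4.3.3) on log2(value + 1). One model held all 12 libraries, p-values were adjusted by Benjamini-Hochberg separately for every comparison, and calls were made under 0.01. For each gene the transcript with the highest mean was used. ATF3, ASNS and PHGDH were tested in the same fit over all transcripts. All 10 members are named, and from each list up to 3 genes with the largest and 3 with the smallest log2 fold change past the threshold in each comparison with untreated cells. The members and the lists were chosen with earlier results of these data known, although membership itself goes by gene symbol. The fits were also run on simulated data, the outcome of which is not reported here. Alternatives were edgeR 4.0.16 and DESeq2 1.42.0 on the recovered reads, other scalings, filters, pseudocounts and thresholds, values summed by symbol and leaving out each library. Motifs, tables and figures were made in Python 3.11.15.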

Additional observations from a re-analysis of the deposited data

How the results depend on the processing

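No paired analysis was possible because the column headers carry no replicate number. The limits are the short countable stretches, the technical triplicates and the depth: transcripts with about 10 reads per library, such as CHAC1-201 and ASNS-215, have standard errors of 0.33 to 0.38 on the log2 scale. Of the values for single members in each comparison, 499 of 547 kept their direction and side of the threshold under the alternatives that kept all libraries, 35 came to pass it, 5 no longer passed and 8 changed sign without passing it on either side. When libraries were left out one at a time the numbers were 602, 8, 20 and 18 of 648.

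For the members' counts, genes lower with DAC were 1, and 2 with edgeR, library size scaling, size factors from protein-coding transcripts, no filter or a threshold of 0.05, 3 over all transcripts or by symbol, and 1 to 2 without single libraries. With ATRA, 1 was higher at 0.05, and genes lower went from 2 to 0 with the groups compared alone and ran from 0 to 2 without single libraries. Genes lower with DAC+ATRA went from 1 to 2 with edgeR, no filter, all transcripts, the groups compared alone or 0.05, to 3 with library size scaling, protein-coding size factors or sums by symbol, and ran from 1 to 2 without single libraries. Against DAC, DAC+ATRA had 1 higher in place of 0 with edgeR, both other scalings, no filter, the groups compared alone or 0.05, and 0 to 1 without single libraries. Genes lower there went from 1 to 2 with these settings and DESeq2, to 3 by symbol, and from 0 to 2 without single libraries. Against ATRA, genes lower went from 2 to 1 with DESeq2 or at least 10 reads in every library, to 4 by symbol, and from 1 to 2 without single libraries. The interaction had 1 higher in place of 0 with edgeR and both other scalings, and 0 to 1 lower without single libraries.

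For the lists, genes higher with DAC went from 13 to 8 with edgeR, and genes lower from 10 to 23 with edgeR, 17 with library size scaling, 21 with protein-coding size factors, 20 over all transcripts and 23 by symbol. Among all transcripts tested, those lower with DAC went from 784 to 1604, 1298 and 1430 under the first 3 of these settings. They were 2189 of 19373 over all transcripts and 1675 of 13528 by symbol. With ATRA the first 3 settings gave 389, 460 and 342 lower, in place of 241. The members' counts above have the same background. With ATRA, 5 higher became 3 with the groups compared alone, and 2 lower became 5 with edgeR, 7 with library size scaling, 5 with protein-coding size factors, 4 without a filter, 4 over all transcripts, 6 by symbol and 6 at 0.05, with 1 to 3 without single libraries. Sums by symbol gave 30 lower in place of 19 with DAC+ATRA and 20 in place of 13 against ATRA. Against DAC, 2 lower became 4 with library size scaling and 0 to 3 without single libraries. The interaction had 1 higher in place of 0 with edgeR, DESeq2, both other scalings or 0.05, 1 lower with DESeq2, and 0 to 1 higher and 0 to 3 lower without single libraries. The cause of these shifts was not tested. All transcripts, sums by symbol and no filter hold more rows to test (19373, 13528 and 25317, in place of 9016).

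The values that changed sign were those of the comparisons below, and none of them passed the threshold. ATF5 with ATRA was 0.03, -0.0433 with library size scaling and -0.16 to 0.31 without single libraries. SESN2 with DAC was 0.02, and -0.18 with edgeR, -0.11 with library size scaling and -0.14 with protein-coding size factors. SESN2 with ATRA ran from -0.30 to 0.0156 without single libraries. The TRIB3 interaction was 0.0819, 0.043 and 0.0331 under these 3 settings and ran from -0.14 to 0.0648 without single libraries. The PHGDH interaction was 0.0884 by symbol and ran from -0.25 to 0.11. Without single libraries the ATF3 interaction ran from -0.34 to 0.0869, the CHAC1 interaction from -0.55 to 0.091 and CHAC1 in DAC+ATRA against DAC from -0.17 to 0.47.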
